A study of Mus musculus with 6 samples.

Results

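Transcription factors that lay out the embryonic forebrain were followed through the cell classes of the mouse septal area, in single-nucleus RNA sequencing of 6 libraries. The set holds 45 genes of the 32285 in the count matrices, listed by name as forebrain patterning regulators, with earlier results of these data known. All 45 symbols were present in the matrices. They comprise the homeodomain gene Nkx2-1, the LIM homeodomain genes Lhx6 and Lhx2, the zinc finger genes Zic1, Zic2, Zic4 and Zic5, and the distal-less genes Dlx1, Dlx2, Dlx5 and Dlx6. The TALE homeodomain genes Meis1, Meis2 and Pbx3, the teashirt genes Tshz1, Tshz2 and Tshz3, the forkhead genes Foxp1, Foxp2 and Foxp4, and the early B cell factor genes Ebf1, Ebf2 and Ebf3 follow. The head and eye genes are Otx1, Otx2, Six3, Pax6, Eya1, Eya2 and Eya4, and the remaining zinc finger genes are Sp8, Sp9, Casz1, Prdm16, Bcl11a and Bcl11b. The set closes with Satb1, the T-box genes Eomes and Tbr1, the homeobox gene Uncx, the nuclear receptor genes Rarb, Nr2f1 and Nr2f2, and with Maf and Sox6.

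These proteins bind DNA, or act as cofactors of proteins that do, and divide the embryonic forebrain into progenitor zones. Nkx2-1 and Lhx6 act in the lineage of the medial ganglionic eminence, the Dlx, Meis2, Sp8 and Sp9 proteins in the wider GABAergic ventral forebrain, Zic proteins along the forebrain midline and in the septum, and Pax6, Eomes and Tbr1 in dorsal glutamatergic lineages. Many of these genes stay active in mature neurons and glia, where they help to keep a cell type's identity.

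All 6 libraries form a single group. They came from brains of wild type mice, and the dissected region was the septal area, the midline structure that holds the lateral septum, the medial septum and the neighbouring diagonal band. No source used here gives the age, sex, strain or treatment of the animals, or says whether each library came from its own animal or from pooled animals. The p-values below therefore rest on the spread between 6 libraries, which may be technical, drawn by edgeR towards a spread shared by all genes. The series title speaks of nuclei and the protocol of cells. The libraries held 7393 to 11134 barcodes and 70183544 to 95175260 unique molecular identifiers (UMIs, counted RNA molecules). At least 500 genes were detected in 54623 barcodes, whose median UMI count was 5175 to 6863 per library. Mitochondrial genes gave 0.047% to 0.0706% of UMIs, and any 2 libraries shared no more than 0.433% of the smaller one's barcodes.

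Classes were gated nucleus by nucleus on 100 marker genes in 27 panels, none of which was a member of the set. Markers of exactly 1 major class were found in 49503 nuclei, 1938 had none, and 3182 (5.83%) had several and were left out. The neurons numbered 23574, of which 16638 were GABAergic-like and 891 glutamatergic-like. Among the neurons were 7750 lateral septum-like, 373 medial septum-like GABAergic, 576 striatal medium spiny-like, 229 cholinergic-like, 75 interneuron-like and 7864 other GABAergic-like nuclei, with 817 subcortical and 74 cortical glutamatergic-like nuclei. The other classes were astrocyte-like (10417 nuclei), oligodendrocyte-like (7566), oligodendrocyte precursor-like (2602), ependymal-like (2885), microglia-like (1066), endothelial-like (813), pericyte or smooth muscle-like (487) and neuroblast-like (324). A fibroblast-like class of 53 nuclei was too small for levels. The names follow the gate markers with several limits. Pvalb, the classical marker of medial septal GABAergic neurons, stayed at 0.838 ± 1.1 UMIs per 1000000 in the class named for them, whose gate was carried by Kcnc2 at 1267 ± 70.8. Of the cholinergic-like nuclei 147 had a lateral septum panel of at least 8 UMIs per 10000 and 82 had less. Those 82 had a median of 10.6 UMIs per 10000 for the medial septum panel and 3.62 for the lateral septum panel. The interneuron-like class had a median of 9.66 UMIs per 10000 for the medial septum panel and 3.49 for its own.

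Each level below is the sum of a gene's UMIs in a class of a library per 1000000 UMIs of that class (CPM), and ± after a level is the SD over 6 libraries unless another n is given. Counts come from the 3' end and are not divided by gene length, so a gene is compared between classes and never with another gene. A difference is a log2 ratio between classes with its SE, from edgeR's quasi-likelihood test with the library as a block, and p-values are adjusted by Benjamini-Hochberg over all genes tested in that comparison. A gene passed at an adjusted p under 0.05. The spread shared by all genes weighed 7.86 (neurons minus macroglia) to 36.5 (ependymal-like minus astrocyte-like) degrees of freedom, against 5 from a gene's own libraries. The neuroblast-like comparison, described below, is apart from this range. Very small adjusted p-values thus lean on the other genes as well. The share of all genes that passed is given beside each count of members, since cell classes differ in many genes.

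Promoters of 34 of the 45 members were found in a RefSeq table of the GRCm38.p6 build. Those of 5 members are printed, as the 250 bases before the start site, because the results turn on these genes. Zic1 and Zic4 are neighbours on chromosome 9 transcribed away from each other, Dlx1 and Dlx2 are neighbours on chromosome 2, and Rarb had the widest difference between medium spiny-like and lateral septum-like neurons. Capitals mark CCAAT boxes (CCAAT or ATTGG), GC boxes (GGGCGG or CCGCCC) and the direct repeat bound by retinoic acid receptors (2 copies of GTTCAC with 5 bases between them, or the reverse complement).
Zic1, chr9:91365769-91366018, minus strand: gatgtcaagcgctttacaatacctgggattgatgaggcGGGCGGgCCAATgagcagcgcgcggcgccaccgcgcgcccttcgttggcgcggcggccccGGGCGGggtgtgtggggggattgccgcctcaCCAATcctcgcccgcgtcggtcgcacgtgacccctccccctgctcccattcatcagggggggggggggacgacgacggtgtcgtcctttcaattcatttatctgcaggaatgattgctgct
Zic4, chr9:91368722-91368971, plus strand: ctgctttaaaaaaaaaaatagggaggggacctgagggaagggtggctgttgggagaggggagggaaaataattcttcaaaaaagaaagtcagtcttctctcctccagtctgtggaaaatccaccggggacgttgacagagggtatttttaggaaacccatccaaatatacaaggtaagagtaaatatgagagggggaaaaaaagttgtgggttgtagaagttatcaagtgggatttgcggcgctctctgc
Dlx1, chr2:71529195-71529444, plus strand: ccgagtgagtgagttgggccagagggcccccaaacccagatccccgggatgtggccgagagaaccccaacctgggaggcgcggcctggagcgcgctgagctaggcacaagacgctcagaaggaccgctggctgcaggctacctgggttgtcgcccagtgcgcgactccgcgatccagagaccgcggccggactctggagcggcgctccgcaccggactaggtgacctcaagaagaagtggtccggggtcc
Dlx2, chr2:71546755-71547004, minus strand: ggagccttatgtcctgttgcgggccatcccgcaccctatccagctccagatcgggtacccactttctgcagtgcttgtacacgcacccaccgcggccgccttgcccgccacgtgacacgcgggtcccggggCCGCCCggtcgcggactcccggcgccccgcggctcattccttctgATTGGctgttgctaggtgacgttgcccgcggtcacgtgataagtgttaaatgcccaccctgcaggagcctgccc
Rarb, chr14:16575477-16575726, minus strand: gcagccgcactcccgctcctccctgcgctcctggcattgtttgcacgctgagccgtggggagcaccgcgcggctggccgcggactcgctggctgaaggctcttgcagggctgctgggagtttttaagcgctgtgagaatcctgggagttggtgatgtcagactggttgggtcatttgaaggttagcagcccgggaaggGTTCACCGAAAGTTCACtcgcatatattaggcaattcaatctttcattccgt

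The Zic1 promoter held 2 CCAAT boxes and 2 GC boxes and that of Dlx2 held 1 of each, while those of Zic4 and Dlx1 had neither. On either strand, a CCAAT box occurred in 16 of the 34 member promoters (47.1%) and in 33.8% of the 32851 promoters in the table. A GC box likewise occurred in 16 of 34 (47.1%) and in 32.7% of the table. This exact form of the receptor repeat was present in 2 promoters of the whole table (0.00609%), of which Rarb, a gene of the retinoic acid receptor itself, was the only member. The letters searched are those of the Rarb repeat, so its match was given by that choice. Other forms were not searched, and the share does not tell how common such repeats are. None of the marked motifs overlap, and a match describes the sequence alone.

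The members reached their highest mean level in 13 of the 16 classes with levels. The neuroblast-like class led for 11 members, astrocyte-like nuclei for 6, subcortical glutamatergic-like neurons for 5, and endothelial-like and pericyte or smooth muscle-like nuclei for 4 each. Medium spiny-like and medial septum-like GABAergic neurons led for 3 each, and oligodendrocyte precursor-like, ependymal-like and microglia-like nuclei for 2 each. Cholinergic-like neurons, interneuron-like neurons and oligodendrocyte-like nuclei led for 1 each. The lateral septum-like class led for none. For 24 of the 45 members the leading class stood clear of the next one, with ranges over libraries that did not overlap. Leading classes and overlaps were not counted over all genes, so these counts cannot be read as a trait of the members. These levels are a description with no test.

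**Figure D1:**
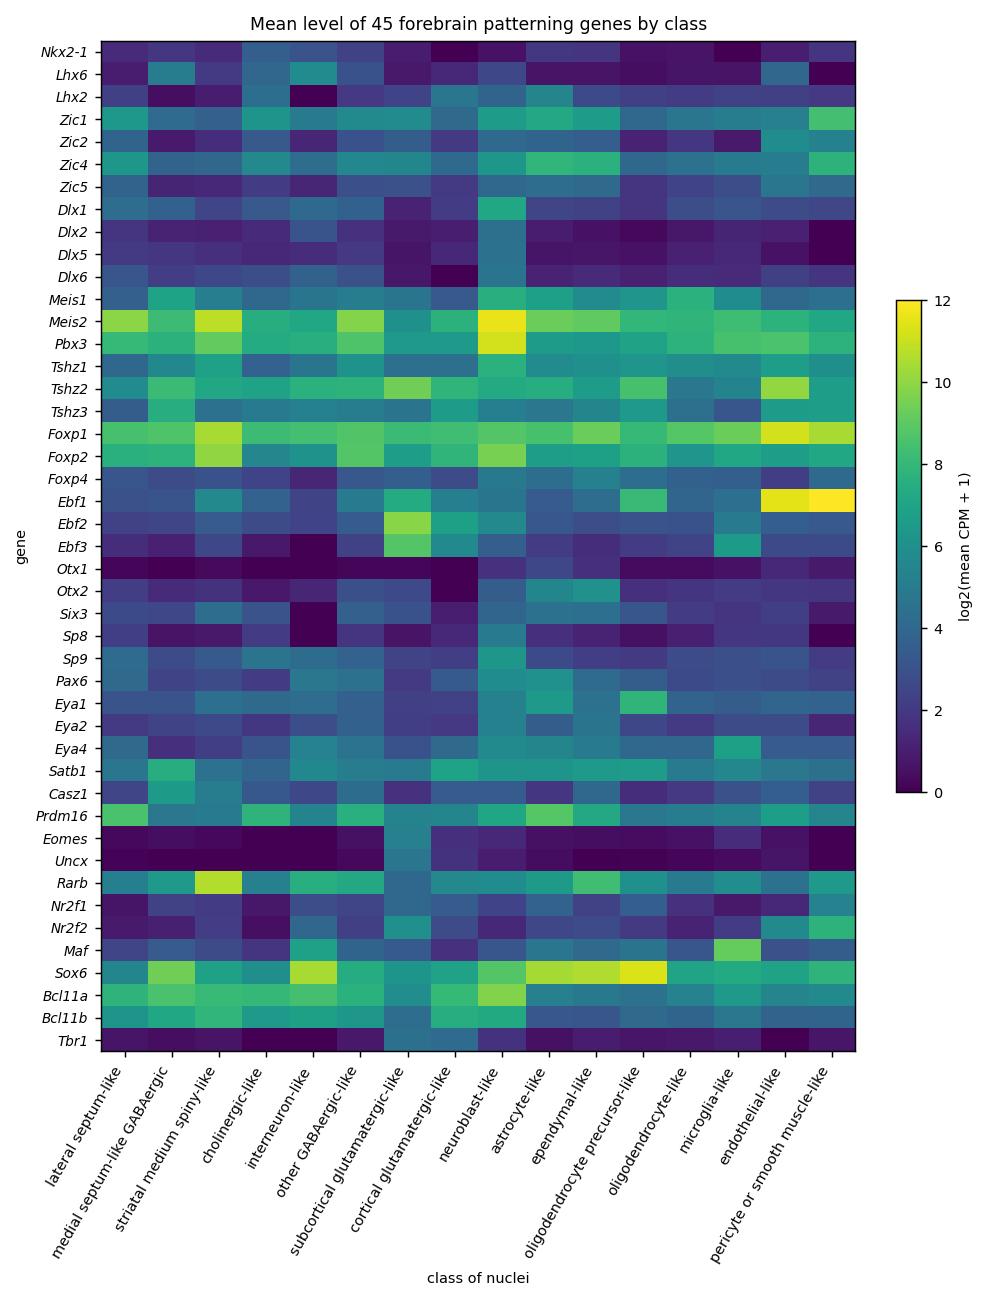
Mean level of the 45 genes (rows, by family) in the 16 classes with levels (columns), as log2(CPM + 1), averaged over 6 libraries (4 for the interneuron-like and cortical glutamatergic-like classes). Ebf2 and Ebf3 are bright in the subcortical glutamatergic column and Rarb in the medium spiny column. Each Dlx gene has the highest value of its row in the neuroblast column.

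Among genes of the ventral forebrain, Nkx2-1, which specifies the medial ganglionic eminence, was low throughout and reached 10.9 ± 3.67 CPM in cholinergic-like neurons, with a range that overlapped that of interneuron-like neurons. Lhx6, which acts downstream of it, was highest in interneuron-like neurons at 53.8 ± 26.4 CPM (n = 4), overlapping the 33 ± 9.73 CPM of medial septum-like GABAergic neurons. All 4 Dlx genes, regulators of GABAergic differentiation, peaked in neuroblast-like nuclei, with Dlx1 at 112 to 197 CPM there and 14.9 to 20.7 CPM in the next class, the lateral septum-like neurons. Dlx1 and Dlx5 stood clear of the next class, and Dlx2 and Dlx6 overlapped interneuron-like neurons. Meis2 and Pbx3, TALE partners of Hox and Dlx-type homeodomain proteins, also led in neuroblast-like nuclei, at 2008 to 4516 CPM and 1365 to 3922 CPM. Sp8 and Sp9, zinc finger genes of ganglionic eminence progenitors, shared that peak.

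Zic genes, which pattern the midline, had their peaks outside neurons. Zic1 reached 289.8 to 417 CPM in pericyte or smooth muscle-like nuclei, clear of the 128 to 198 CPM of astrocyte-like nuclei. Zic4 was highest in astrocyte-like nuclei at 242 ± 30.7 CPM, overlapping pericytes. Zic2 and Zic5 led in endothelial-like nuclei, at 56.4 ± 19.5 and 24.9 ± 8.36 CPM. Their ranges overlapped those of pericyte or smooth muscle-like and of astrocyte-like nuclei, respectively. Of the 16 classes, Zic2, Zic4 and Zic5 had their lowest mean in medial septum-like GABAergic neurons, and their ranges there overlapped those of the next class. Zic1 was lowest in medium spiny-like neurons at 9.49 to 13.6 CPM, against 13.6 to 20.8 CPM in oligodendrocyte precursor-like nuclei, the next class by mean.

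Vessel-associated classes held further peaks. Ebf1, a factor of B cells and of several mesodermal and neural lineages, was at 3333 to 4621 CPM in pericyte or smooth muscle-like nuclei and 2293 to 3336 CPM in endothelial-like nuclei, ranges that just overlap. Foxp1 and Tshz2 led in endothelial-like nuclei, and Nr2f2, a nuclear receptor of venous endothelium and of caudal interneurons, led in pericyte or smooth muscle-like nuclei with Nr2f1. Maf, a factor of macrophages and of some interneurons, reached 406 to 636 CPM in microglia-like nuclei, where Eya4 also had its highest mean. The range of Eya4 there overlapped that of neuroblast-like nuclei.

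Glial classes held the rest of the non-neuronal peaks. Sox6, which keeps oligodendrocyte precursors immature, reached 2394 to 2650.2 CPM in precursor-like nuclei and 36.3 to 60.9 CPM in lateral septum-like neurons, its lowest class. Eya1, a phosphatase and coactivator of homeodomain proteins of the eye pathway, peaked in the same precursors at 196 to 255 CPM. Meis1 was highest in oligodendrocyte-like nuclei, with a range that overlapped that of neuroblast-like nuclei. Astrocyte-like nuclei led for Lhx2, Otx1, Six3, Pax6 and Prdm16, and ependymal-like nuclei for Otx2 and Foxp4. Of these genes only Prdm16 and Otx2 stood clear of the next class. Otx1 stayed low everywhere, with 5.17 ± 1.16 CPM at its highest.

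**Figure D2:**
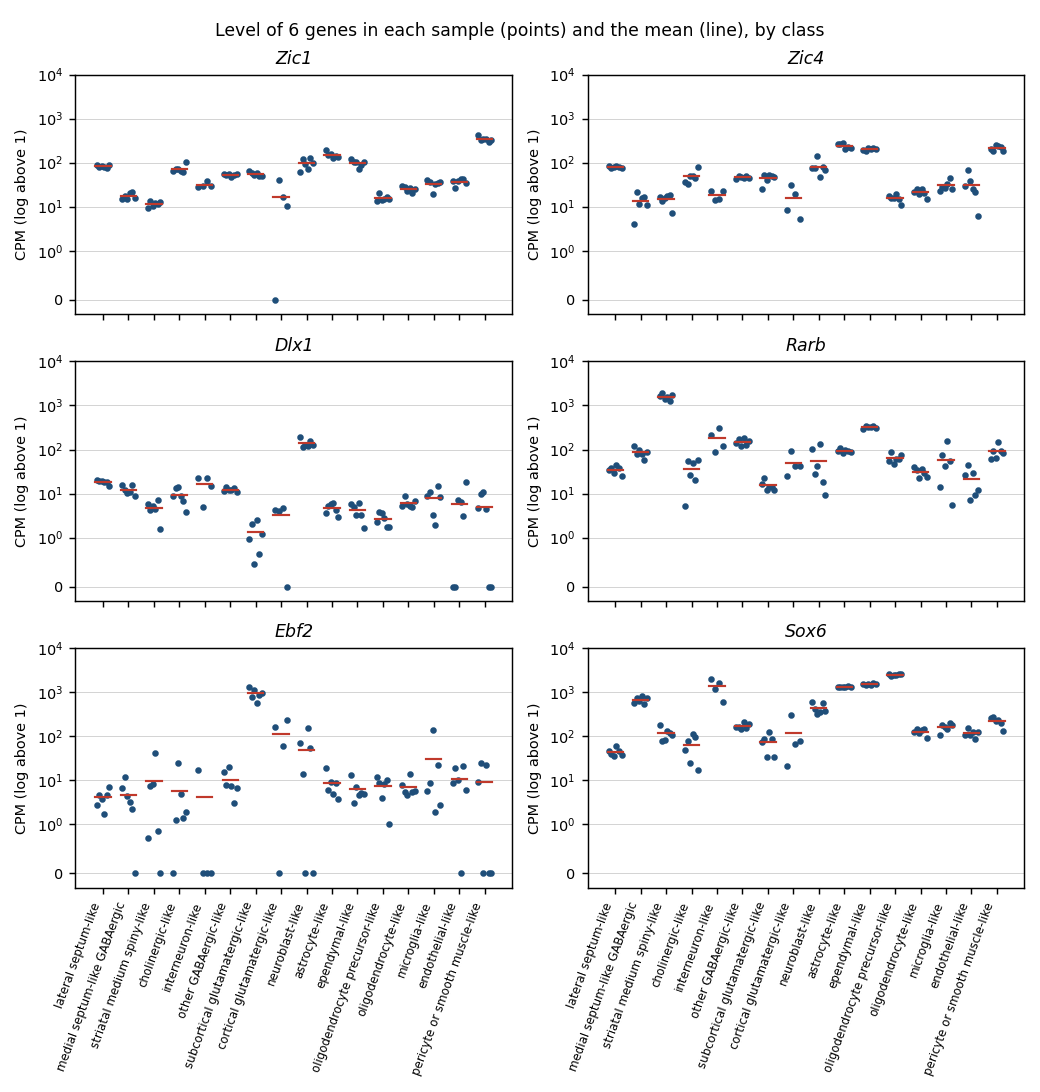
Level of Zic1, Zic4, Dlx1, Rarb, Ebf2 and Sox6 in each library (points) and class, with the mean as a line; the vertical axis is CPM, logarithmic above 1. The libraries of a class lie close together for the large classes and spread in the neuroblast-like class, where Ebf2 runs from 0 to 157 CPM.

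The first comparison set GABAergic-like against glutamatergic-like neurons. Of the 45 members, 26 were higher in GABAergic-like neurons, 9 were higher in glutamatergic-like neurons, 9 did not pass and Otx1 was too low to be tested. Of all genes tested, 31.1% passed, 16.6% towards GABAergic-like and 14.5% towards glutamatergic-like neurons. The 26 include all 4 Dlx genes, 3 Zic genes, Meis2 and Pbx3, and the 9 include all 3 Ebf genes, both T-box genes, Uncx, Tshz2 and both Nr2f genes. The median log2 difference was 0.73 over the members tested and 0.000118 over all genes.

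Glutamatergic-like neurons were set off by the Ebf family. Ebf2, which in the mouse acts in Cajal-Retzius and other early-born neurons, had 3.88 to 10 CPM (median 6.28) in GABAergic-like neurons, against 494 to 1292 CPM (median 905) in glutamatergic-like neurons. The ranges lie far apart, and the log2 difference was -7.12 ± 0.15 (adjusted p = 2.6e-13). Ebf3 showed the same split, with 2.18 to 4.46 CPM (median 2.69) in GABAergic-like neurons, against 226 to 590.1 CPM (median 426) in glutamatergic-like neurons (-7.20 ± 0.22, adjusted p = 1.3e-11). Ebf1 averaged 17.1 ± 3.23 CPM in GABAergic-like neurons, against 169 ± 54 CPM in glutamatergic-like neurons (-3.31 ± 0.16). Every library had more of each Ebf gene in its glutamatergic-like neurons.

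The homeobox gene Uncx had 0.0459 to 0.22 CPM (median 0.127) in GABAergic-like neurons, against 13.8 to 37.6 CPM (median 24.1) in glutamatergic-like neurons (-7.50 ± 0.26, adjusted p = 3.5e-11). Eomes, the T-box gene of intermediate progenitors, averaged 0.296 ± 0.123 against 34.6 ± 6.52 CPM (-6.85 ± 0.25), and Tbr1, the T-box gene of early glutamatergic neurons, 0.662 ± 0.143 against 20.9 ± 4.69 CPM (-4.98 ± 0.23). Both T-box genes were close to 0 in GABAergic-like neurons of every library. Nr2f2 averaged 2.24 ± 0.506 CPM in GABAergic-like neurons, against 63.8 ± 21.9 CPM in glutamatergic-like neurons (-4.84 ± 0.15), and Tshz2 130.5 ± 15.6 and 677 ± 146 CPM (-2.39 ± 0.11). With a stricter gate the difference of Eomes was -7.54.

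On the GABAergic side, Rarb, the retinoic acid receptor beta, had 103 to 174 CPM (median 138) in GABAergic-like neurons, against 12.7 to 24.3 CPM (median 14.8) in glutamatergic-like neurons (3.03 ± 0.084, adjusted p = 5.3e-12). Meis2 was at 880.3 to 984 CPM (median 922) in GABAergic-like neurons, against 31 to 144 CPM (median 60.9) in glutamatergic-like neurons (3.87 ± 0.19, adjusted p = 1.4e-09). Pbx3 averaged 338 ± 18.1 and 84.8 ± 24.3 CPM (2.01 ± 0.098), and Prdm16, a zinc finger regulator of neural stem cells, 278 ± 15.5 and 38.3 ± 14.4 CPM (2.87 ± 0.17), GABAergic-like neurons first. None of these ranges overlapped. Within the Dlx family, Dlx6 had the largest log2 difference (3.65 ± 0.33) and Dlx2 the smallest (1.79 ± 0.45). The lateral septum panel summed to 1513 to 1681 CPM in GABAergic-like neurons and 443 to 535 CPM in glutamatergic-like neurons, with 4 of 4 markers higher in the first, and their part in the result was not tested.

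Of 50 other forebrain transcription factor genes, 18 were higher in GABAergic-like neurons, 10 were higher in glutamatergic-like neurons, 8 did not pass and 14 were not tested. The LIM homeodomain genes Lhx9, Lhx1 and Lhx5 had the smallest adjusted p among them. Lhx9 averaged 0.354 ± 0.078 CPM in GABAergic-like neurons, against 30 ± 10.1 CPM in glutamatergic-like neurons (-6.37 ± 0.24), Lhx1 0.182 ± 0.0823 and 16.8 ± 5.06 CPM (-6.51 ± 0.31), and Lhx5 0.574 ± 0.125 and 8.97 ± 2.9 CPM (-3.93 ± 0.27).

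Lateral septum-like neurons were then set against medial septum-like GABAergic neurons. Here 14 members were higher in the lateral septum-like class and 13 in the medial septum-like class, while 14 did not pass and 4 (Otx1, Eomes, Uncx, Tbr1) were not tested. The background was 32.2% of all genes, 16.7% towards lateral septum-like and 15.5% towards medial septum-like neurons. All 4 Zic genes stood on the lateral side and all 3 Tshz genes on the medial side. Members had a median log2 difference of 0.06, and all genes one of 0.0213.

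Zic1 had 77.1 to 89.6 CPM (median 82.5) in lateral septum-like neurons, against 14.6 to 21 CPM (median 16.6) in medial septum-like GABAergic neurons. Its neighbour Zic4 had 75 to 85.5 CPM (median 80.4) in lateral septum-like neurons, against 3.99 to 21.2 CPM (median 13.6) in medial septum-like neurons. In all 6 libraries both genes were higher in the lateral class, with no overlap, and the log2 differences were 2.25 ± 0.12 (adjusted p = 7.5e-15) and 2.56 ± 0.15 (adjusted p = 8.2e-14). Zic2 had the widest difference of the family, at 4.09 ± 0.37, with 13.7 ± 1.27 CPM in lateral septum-like neurons and only 5 UMIs in all in medial septum-like neurons. That value moved to 4.86 with a stricter gate and 7.26 with nuclei thinned to 2000 UMIs. Reads of Zic1 and Zic4 may also be shared, since the genes overlap on opposite strands in the GENCODE M21 annotation and no source used here says whether counting used strand.

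Prdm16 was at 339.7 to 406 CPM (median 371) in lateral septum-like neurons, against 11.7 to 33.2 CPM (median 31.6) in medial septum-like neurons (3.86 ± 0.12, adjusted p = 1.2e-19). Meis2 had 904 to 1009 CPM (median 964) in the lateral class, against 222 to 364 CPM (median 304) in the medial class (1.74 ± 0.069, adjusted p = 3.5e-17). Every library of the lateral class lay above every library of the medial class for both genes.

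Toward the medial side, Sox6, which is also needed in interneurons of the medial ganglionic eminence, had 36.3 to 60.9 CPM (median 42.8) in lateral septum-like neurons, against 535 to 839 CPM (median 686) in medial septum-like neurons (-3.91 ± 0.085, adjusted p = 1.3e-22). Lhx6 of the same lineage averaged 0.956 ± 0.193 CPM in the lateral and 33 ± 9.73 CPM in the medial class (-5.06 ± 0.22). Satb1, a chromatin organiser downstream of Lhx6 in cortical interneurons, averaged 25.2 ± 2.2 and 176 ± 28.4 CPM (-2.79 ± 0.089). These 3 genes were higher in the medial class in every library. Tshz3 averaged 10.5 ± 0.838 CPM in the lateral and 180.2 ± 46.7 CPM in the medial class (-4.05 ± 0.097) and Tshz2 54.7 ± 6.64 and 289 ± 70.9 CPM (-2.34 ± 0.11).

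The zinc finger gene Casz1, vertebrate castor, averaged 4.67 ± 0.914 CPM in lateral septum-like neurons, against 91.9 ± 25.4 CPM in medial septum-like neurons (-4.24 ± 0.15). Meis1 went opposite to its relative Meis2, at 11.9 ± 1.08 and 124 ± 34.8 CPM (-3.33 ± 0.12), and Bcl11b averaged 73.2 ± 3 and 145 ± 17.1 CPM (-0.96 ± 0.068). A stricter gate gave -3.16 for Casz1. The summed striatal medium spiny panel overlapped between the classes, at 616 to 689.5 CPM in lateral septum-like neurons and 629.6 to 794 CPM in medial septum-like neurons.

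Among the 50 other forebrain genes, 13 were higher in lateral septum-like and 7 in medial septum-like neurons, 5 did not pass and 25 were not tested. Gbx1, a homeobox gene, averaged 1.04 ± 0.17 CPM in the lateral and 44.2 ± 9.66 CPM in the medial class (-5.34 ± 0.21). Lhx8, which drives basal forebrain cholinergic fate, averaged 3.39 ± 1.08 and 43.7 ± 9.56 CPM (-3.70 ± 0.18).

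**Figure D3:**
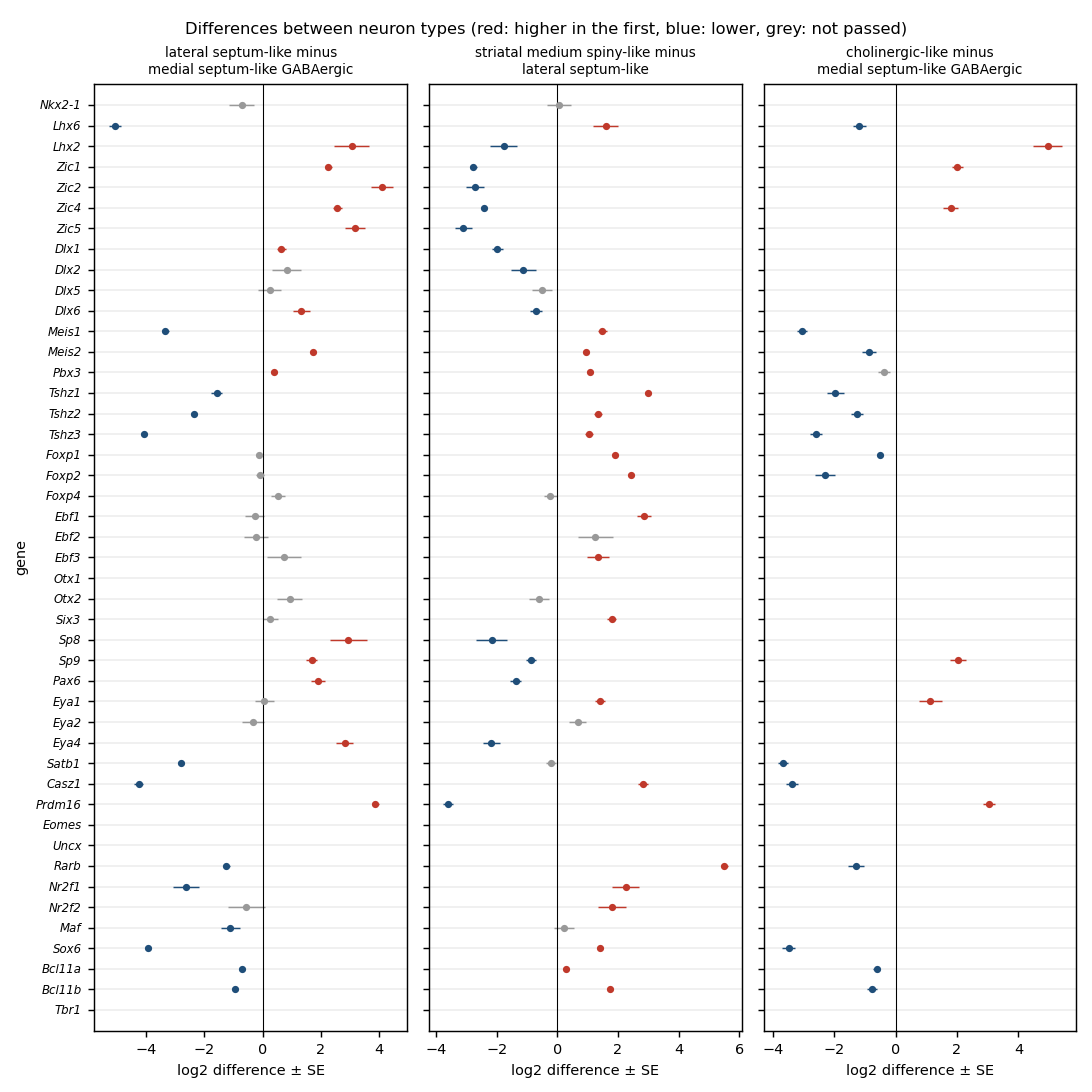
Log2 difference (horizontal axis, with SE as bars) of the members in 3 comparisons of neuron types: lateral septum-like minus medial septum-like GABAergic, striatal medium spiny-like minus lateral septum-like, and cholinergic-like minus medial septum-like GABAergic neurons. Zic genes lie right of 0 in the first and left of it in the second, and Rarb reaches 5.51 in the second.

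Striatal medium spiny-like neurons, the projection neurons of the striatum that borders the septum, were compared with lateral septum-like neurons. Of the members, 20 were higher in medium spiny-like neurons and 13 in lateral septum-like neurons, 8 did not pass and 4 were not tested. The background was 32.8% of all genes, 15.9% towards medium spiny-like and 16.9% towards lateral septum-like neurons. The lateral septum-like nuclei are those of the previous comparison, so the 2 comparisons are not independent. Over the members tested the median log2 difference was 0.67, and over all genes -0.0208.

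Rarb had 1273 to 1881 CPM (median 1581) in medium spiny-like neurons, against 25.6 to 44.2 CPM (median 36.4) in lateral septum-like neurons. The classes were separated in every library, with a log2 difference of 5.51 ± 0.10 (adjusted p = 1.8e-20). Foxp1 and Foxp2, forkhead genes of striatal projection neurons, were both higher in medium spiny-like neurons. Foxp1 was at 1151 to 1595 CPM (median 1409) in medium spiny-like and 347 to 389.6 CPM (median 369.6) in lateral septum-like neurons (1.91 ± 0.066, adjusted p = 3.9e-16), and Foxp2 at 913 to 1307 CPM (median 1001) and 154 to 231 CPM (median 198) (2.44 ± 0.085, adjusted p = 4.3e-16). Foxp4 did not pass. Bcl11b, which striatal neurons need to mature, averaged 240.1 ± 26.9 CPM in medium spiny-like and 73.2 ± 3 CPM in lateral septum-like neurons (1.73 ± 0.065).

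Meis2 and Pbx3 were also higher in medium spiny-like neurons, at 1814 ± 104 against 961 ± 35.4 CPM (0.93 ± 0.051) and 561 ± 57.7 against 267 ± 17.7 CPM (1.09 ± 0.068). Tshz1, which in the mouse guides olfactory bulb interneurons, averaged 117 ± 22.7 and 14.9 ± 2.14 CPM (2.98 ± 0.087), Sox6 118 ± 36.6 and 44.3 ± 9.07 CPM (1.40 ± 0.099), and Casz1 31.9 ± 6 and 4.67 ± 0.914 CPM (2.82 ± 0.15), medium spiny-like neurons first. Casz1 moved to 3.47 with a stricter gate and 3.48 with thinned nuclei.

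The 4 Zic genes pointed the other way. Zic1 had 9.49 to 13.6 CPM (median 11.8) in medium spiny-like neurons, against 77.1 to 89.6 CPM (median 82.5) in lateral septum-like neurons (-2.77 ± 0.11, adjusted p = 3.1e-15). Zic4 averaged 14.8 ± 4.07 CPM in medium spiny-like and 80.3 ± 4.1 CPM in lateral septum-like neurons (-2.42 ± 0.11). Zic5 was the family's extreme at -3.10 ± 0.27. Prdm16 averaged 30.5 ± 17.7 and 372 ± 22.8 CPM (-3.60 ± 0.17), and the value moved to -4.29 with a stricter gate and -4.39 with thinned nuclei. Dlx1, with the widest difference of its family, averaged 4.73 ± 1.83 CPM in medium spiny-like and 18.4 ± 2 CPM in lateral septum-like neurons (-1.98 ± 0.19).

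Astrocyte markers moved with this comparison, summing to 366 to 566 CPM in medium spiny-like and 142 to 196 CPM in lateral septum-like neurons, with 4 of 6 markers higher in the first, and their part in the result was not tested. In the list of 50 other forebrain genes, 12 were higher in medium spiny-like and 10 in lateral septum-like neurons, 6 did not pass and 22 were not tested. Rxrg, a retinoid receptor that pairs with Rarb, averaged 62.8 ± 4.57 CPM in medium spiny-like and 2.97 ± 0.301 CPM in lateral septum-like neurons (4.42 ± 0.12). The corepressor gene Tle4 averaged 374 ± 16.4 and 140.5 ± 2.86 CPM (1.43 ± 0.054), and the homeobox gene Zfhx3 297 ± 52.6 and 903 ± 26.9 CPM (-1.60 ± 0.076).

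The cholinergic-like class was set against the medial septum-like GABAergic neurons used above. Of its markers of acetylcholine neurons, Chat was at 267 ± 39.6 CPM, Slc5a7 at 213 ± 51.1 CPM and Slc18a3 at 2.93 ± 1.73 CPM. Of its 229 nuclei 147 were also high in the lateral septum panel, so the name rests on the gate alone. Of the 45 members 24 were too low in these 2 small classes to be tested. Of the other 21, 6 were higher in cholinergic-like neurons, 14 were higher in medial septum-like GABAergic neurons and Pbx3 did not pass, against a background of 25.2% of all genes (12.7% towards cholinergic-like, 12.5% towards medial septum-like). The median log2 difference was -0.87 over the members and -0.0027 over all genes.

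Satb1 had 7.56 to 26 CPM (median 12) in cholinergic-like neurons, against 156 to 229 CPM (median 163) in medial septum-like GABAergic neurons (-3.67 ± 0.17, adjusted p = 3.5e-12). Sox6 had 17 to 113 CPM (median 64) in cholinergic-like neurons, against 535 to 839 CPM (median 686) in medial septum-like neurons (-3.48 ± 0.21, adjusted p = 2e-10). Both separated the classes in every library. Meis1 averaged 15.2 ± 6.38 CPM in cholinergic-like and 124 ± 34.8 CPM in medial septum-like neurons (-3.05 ± 0.17), Casz1 9.02 ± 3.52 and 91.9 ± 25.4 CPM (-3.38 ± 0.20), and Tshz3 30.1 ± 14.5 and 180.2 ± 46.7 CPM (-2.60 ± 0.20). Tshz1 averaged 12.5 ± 6.82 and 47.6 ± 18.9 CPM (-1.97 ± 0.28) and Foxp2 46.1 ± 37.9 and 217 ± 75.6 CPM (-2.29 ± 0.33), and the ranges of these 2 genes overlapped.

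In the other direction, Prdm16 averaged 224 ± 55.6 CPM in cholinergic-like and 26.3 ± 9.54 CPM in medial septum-like neurons (3.05 ± 0.20), and Zic1 73.3 ± 16.2 and 17.3 ± 2.88 CPM (2.01 ± 0.17). Zic4 averaged 49.1 ± 17.2 and 13.3 ± 5.98 CPM (1.79 ± 0.25), Sp9 23.4 ± 3.89 and 5.6 ± 1.27 CPM (2.02 ± 0.26), and Lhx2 19.1 ± 4.6 CPM in cholinergic-like neurons, against only 3 UMIs in all in the medial class. Nkx2-1, which the cholinergic lineage also uses, was not tested, with 10.9 ± 3.67 CPM in cholinergic-like and 2.76 ± 1.63 CPM in medial septum-like neurons.

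The lateral septum panel moved with this comparison, at 1280.0 to 1659.5 CPM in cholinergic-like and 249 to 341 CPM in medial septum-like neurons, with 4 of 4 markers higher in the first. With the cholinergic-like nuclei under 8 UMIs per 10000 for the lateral septum panel, Prdm16 lost its difference and changed sign, at -0.12 (adjusted p = 0.89). Library 6 had only 9 such nuclei and was left out of that fit. In the same nuclei Zic1 was at 1.70, Zic4 1.88, Satb1 -3.71 and Sox6 -3.97, and all 4 passed. Foxp2 widened there to -4.46, Casz1 to -4.43, and Tshz3 narrowed to -1.90.

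Of the 50 other forebrain genes, 8 were higher in cholinergic-like and 6 in medial septum-like neurons, 3 did not pass and 33 were not tested. Gbx1 averaged 1.41 ± 1.26 CPM in cholinergic-like and 44.2 ± 9.66 CPM in medial septum-like neurons (-4.83 ± 0.33), and the LIM-only gene Lmo3 97.3 ± 15.6 and 43.8 ± 14.4 CPM (1.13 ± 0.14).

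Within medium spiny-like neurons, 252 nuclei with markers of the direct pathway (Drd1, Tac1, Pdyn) were set against 129 with markers of the indirect pathway (Drd2, Adora2a, Penk, Gpr6). The gates were unequal. A Drd1-type nucleus needed any UMI of its panel and more of it than of the Drd2 panel, so it could hold Drd2 panel UMIs. A Drd2-type nucleus needed UMIs from several of its markers and none of the Drd1 panel. Medium spiny-like nuclei that met neither gate were left out. Only 11 members were counted well enough to be tested. Of these, 4 (Pbx3, Foxp2, Tshz1, Ebf1) were higher in Drd1-type neurons, Foxp1 was higher in Drd2-type neurons, and Meis2, Tshz2, Rarb, Sox6, Bcl11a and Bcl11b did not pass. Of all genes, 5.75% passed, 3.06% towards Drd1-type and 2.68% towards Drd2-type neurons. The 3 Drd1 panel markers were at 0 in the Drd2-type nuclei, as the gate requires. The median log2 difference was 0.37 over the 11 members and 0.00252 over all genes.

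Foxp2 had 1067 to 1884 CPM (median 1495) in Drd1-type neurons, against 92.6 to 299.5 CPM (median 198) in Drd2-type neurons (2.87 ± 0.16, adjusted p = 2.1e-09). Pbx3 had 815 to 870.4 CPM (median 837) in Drd1-type neurons, against 46.2 to 174 CPM (median 109.6) in Drd2-type neurons (2.84 ± 0.16, adjusted p = 2.1e-09). The lowest Drd1-type library exceeded the highest Drd2-type library for both genes. Tshz1 was at 99.7 to 195 CPM (median 132) in Drd1-type and 14.8 to 80.9 CPM (median 57.2) in Drd2-type neurons (1.44 ± 0.20, adjusted p = 0.00018).

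Ebf1, which in the mouse is required for direct pathway neurons to differentiate, had 37.9 to 96.5 CPM (median 77.9) in Drd1-type neurons, against 0 to 26.7 CPM (median 7.3) in Drd2-type neurons (2.57 ± 0.37, adjusted p = 0.0002). Without library 2 its difference was 3.38. Foxp1 ran the opposite way, with 1050.5 to 1465 CPM (median 1302) in Drd1-type neurons, against 1708 to 2611 CPM (median 2494) in Drd2-type neurons (-0.93 ± 0.086, adjusted p = 1.4e-06), also without overlap. Foxp1 and Foxp2 thus differed between the 2 types in opposite directions. Rarb did not pass, with 1912 ± 222 CPM in Drd1-type and 1987 ± 366 CPM in Drd2-type neurons (-0.07 ± 0.098, adjusted p = 0.83), a level far above that of the other neuron classes in both types. Among the 50 other forebrain genes, 3 were higher in Drd1-type neurons, 1 in Drd2-type neurons, 8 did not pass and 38 were not tested. Isl1, a LIM homeodomain gene of direct pathway neurons, averaged 38.7 ± 8.22 CPM in Drd1-type and 3.26 ± 5.78 CPM in Drd2-type neurons (3.44 ± 0.50), and Tle4 361 ± 24.7 and 553 ± 56.3 CPM (-0.64 ± 0.10).

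**Figure D4:**
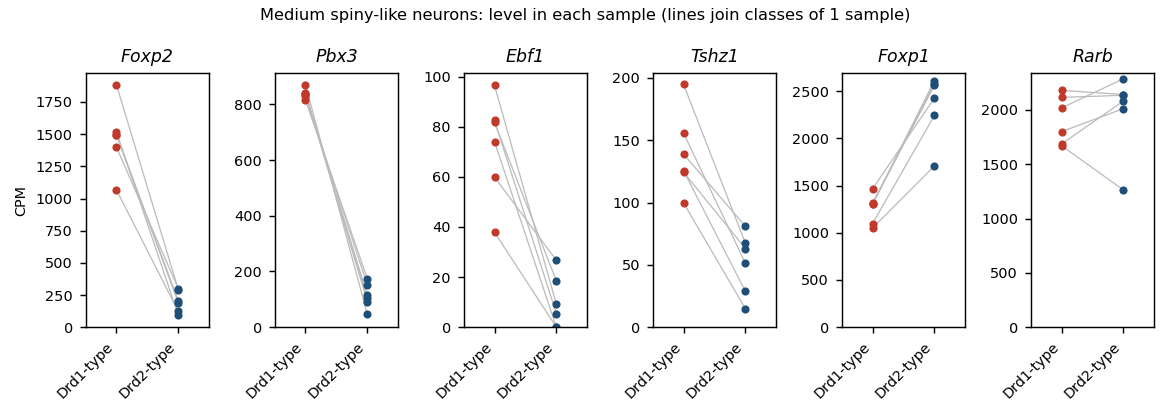
Level in CPM of Foxp2, Pbx3, Ebf1, Tshz1, Foxp1 and Rarb in Drd1-type (left) and Drd2-type (right) medium spiny-like neurons, a point per library with the 2 values of a library joined. Foxp2, Pbx3, Ebf1 and Tshz1 are higher in Drd1-type neurons in all 6 libraries, Foxp1 is lower in all 6, and Rarb overlaps.

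Subcortical glutamatergic-like neurons were divided by Corin, a protease gene that marks a subset of them, into 358 Corin-gated and 459 other nuclei. In the Corin-gated neurons 10 members were higher and 6 lower, 9 did not pass and 20 were not tested, with a background of 17.0% of all genes (7.54% higher, 9.5% lower). The 5 members that peak in subcortical glutamatergic-like neurons (Ebf2, Ebf3, Eomes, Uncx, Tbr1) were all higher in the Corin-gated ones. Earlier results of these data had already paired Corin with Ebf genes in these neurons. The direction of the Ebf genes is therefore a description and no independent result. Ebf3 had 548 to 766 CPM (median 733) in Corin-gated neurons, against 135 to 478 CPM (median 238) in the other neurons (1.44 ± 0.17, adjusted p = 2e-05). Eomes had 51.4 to 88.6 CPM (median 72.8) in Corin-gated neurons, against 6.45 to 23.6 CPM (median 21) in the others (1.98 ± 0.25, adjusted p = 3.2e-05). The ranges did not overlap for either gene.

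Uncx averaged 42.4 ± 8.57 CPM in Corin-gated and 13.9 ± 6.36 CPM in other neurons (1.67 ± 0.23), Tbr1 34.5 ± 9.26 and 12.2 ± 4.71 CPM (1.49 ± 0.26), and Ebf2 1279 ± 267 and 747 ± 329.6 CPM (0.94 ± 0.16). With a stricter gate Ebf2 no longer passed, at 0.56 (adjusted p = 0.082). Tshz2 (0.85 ± 0.13), Nr2f1 (1.29 ± 0.21) and Nr2f2 (1.08 ± 0.24) were also higher in the Corin-gated neurons, Nr2f2 in 5 of 6 libraries and no longer past the threshold with a robust spread in edgeR (adjusted p = 0.076). Ranges overlapped for Ebf2, Tshz2 and both Nr2f genes. Lower in them were Pbx3, at 58 ± 36.5 against 110.5 ± 29 CPM (-0.97 ± 0.16), Bcl11a, at 24.5 ± 12.4 against 78.9 ± 38.9 CPM (-1.47 ± 0.26), and Bcl11b, at 7.9 ± 5.77 against 25.8 ± 11.1 CPM (-1.67 ± 0.33, and -2.48 with a stricter gate), with ranges that overlapped. Tshz3 averaged 5.64 ± 5.2 CPM in Corin-gated and 33.6 ± 11.5 CPM in other neurons (-2.32 ± 0.42, and -3.07 without library 1).

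Medial septum markers summed to 146 to 350.2 CPM in Corin-gated and 364 to 468 CPM in other neurons, with 4 of 5 lower in the first, and their part in the result was not tested. Members had a median log2 difference of -0.05, and all genes one of 0.0211. In the list of 50 other forebrain genes, 4 were higher in Corin-gated neurons, 5 lower, 7 did not pass and 34 were not tested. Sox5 averaged 78.1 ± 35.5 CPM in Corin-gated and 369 ± 122 CPM in other neurons (-2.19 ± 0.16), Zfhx3 1883 ± 175 and 1045 ± 266 CPM (0.97 ± 0.13), and the Wnt effector gene Tcf7l2 10.9 ± 5.5 and 66.8 ± 48.5 CPM (-2.45 ± 0.33).

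The lateral septum-like class was divided 4 times, each time by the marker genes of a subset against all its other nuclei. The 4 comparisons use the same 7750 nuclei and a nucleus may fall in several subsets, so their values are given side by side and not as independent results. Of the 45 members, 24 passed for the Ano2/Ntf3 subset (33.0% of all genes), 22 for the Col25a1/Tll1 subset (23.0% of all genes), 21 for the Calcr/Esr1/Prlr subset (15.2%) and 18 for the Col6a3/Tacr1 subset (17.1%). The marker genes named in a subset were used only to gate it.

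**Figure D5:**
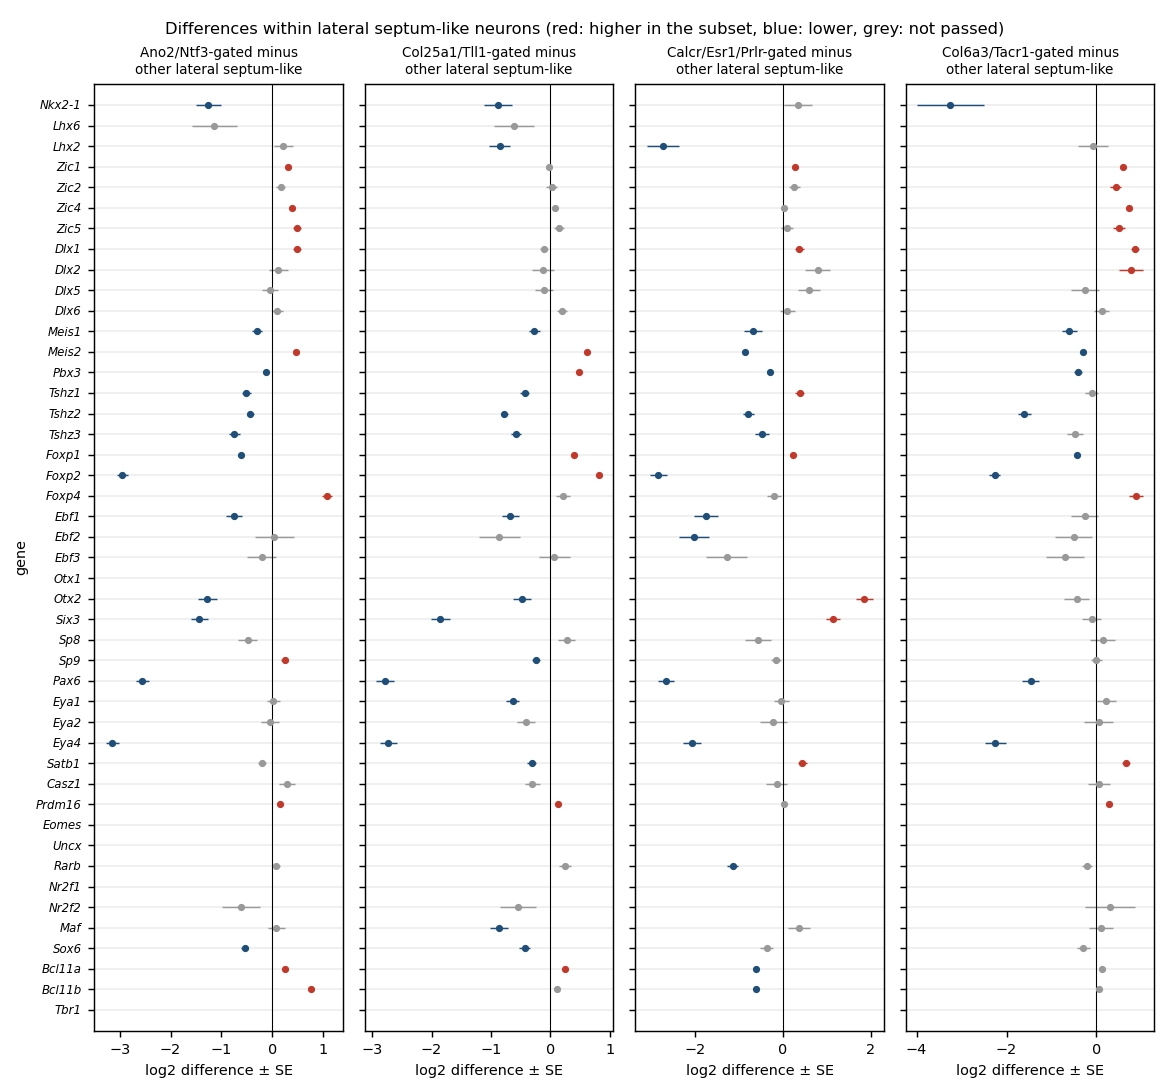
Log2 difference, with SE as bars, of the members between each of 4 gated subsets and the other lateral septum-like neurons. Foxp2 lies left of 0 for 3 subsets and right of it for the Col25a1/Tll1 subset, and Otx2 and Six3 lie right of 0 for the Calcr/Esr1/Prlr subset.

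In the 1826 Ano2/Ntf3-gated neurons 10 members were higher and 14 lower than in the other lateral septum-like neurons, 16 did not pass and 5 were not tested. The background was 33.0% of all genes (16.6% higher, 16.4% lower). Foxp2 had 18.1 to 48.8 CPM (median 31.7) in Ano2/Ntf3-gated neurons, against 208 to 296 CPM (median 258) in the others (-2.95 ± 0.11, adjusted p = 5.2e-15). Eya4, a coactivator of the same family as Eya1, had 0.802 to 3.48 CPM (median 2.26) in the subset, against 16.8 to 34.1 CPM (median 20) in the others (-3.15 ± 0.13, adjusted p = 6.7e-14). Both were low in each of the 6 libraries of the subset. Pax6 averaged 3.35 ± 1.31 CPM in the subset and 21.1 ± 4.59 CPM in the others (-2.56 ± 0.13), Six3 2.41 ± 0.745 and 6.69 ± 0.727 CPM (-1.44 ± 0.17), and Foxp1 256 ± 11.1 and 407 ± 14.9 CPM (-0.61 ± 0.029).

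Higher in the subset were Meis2, at 1177 ± 40.3 against 884 ± 37.7 CPM (0.47 ± 0.025), Bcl11b, at 103 ± 4.66 against 62.7 ± 4.17 CPM (0.77 ± 0.041), and Foxp4, at 13.2 ± 1.68 against 6.54 ± 0.71 CPM (1.08 ± 0.091). These 3 genes had no overlap between subset and others. Smaller differences of Zic4 (0.38 ± 0.037), Zic1 (0.31 ± 0.041), Bcl11a (0.25 ± 0.03) and Sox6 (-0.54 ± 0.068) no longer passed with a stricter gate, where they were 0.09, 0.16, 0.08 and -0.18. The astrocyte panel summed to 94 to 141 CPM in the subset and 156 to 214 CPM in the others, with 6 of 6 markers lower in the subset, and its part in the result was not tested. Over the members tested the median log2 difference was -0.04, and over all genes -0.01.

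Of the 50 other forebrain genes, 13 were higher in Ano2/Ntf3-gated neurons, 4 lower, 9 did not pass and 24 were not tested. Zeb2 averaged 482 ± 38 CPM in the subset and 143 ± 17.1 CPM in the others (1.82 ± 0.054), Nfib 602 ± 36.7 and 280.1 ± 24.5 CPM (1.17 ± 0.037), and Tle4 82.9 ± 7.25 and 161 ± 4.97 CPM (-0.90 ± 0.043).

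The 2567 Col25a1/Tll1-gated neurons had 6 members higher and 16 lower than the other lateral septum-like neurons, with 18 not passing and 5 not tested, against a background of 23.0% (12.7% higher, 10.3% lower). Meis2 had 1177 to 1292 CPM (median 1204) in Col25a1/Tll1-gated neurons, against 754 to 906 CPM (median 815) in the others (0.61 ± 0.029, adjusted p = 2e-13). Foxp2 was higher here, with 193 to 316 CPM (median 272) in the subset, against 116 to 197 CPM (median 155) in the others (0.82 ± 0.054, adjusted p = 4.7e-11). The ranges of Foxp2 overlapped slightly, yet all 6 libraries showed the direction. Foxp1 averaged 429 ± 30.6 and 335 ± 10.5 CPM (0.39 ± 0.026), Pbx3 323 ± 28 and 236 ± 18.8 CPM (0.49 ± 0.04), and Bcl11a 247 ± 10.6 and 215 ± 10.1 CPM (0.24 ± 0.026), the subset first.

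Several head and eye genes were lower in this subset. Of these, Pax6 and Eya4 also passed as lower in the main fit of each of the other subsets. Pax6 averaged 3.14 ± 1.28 CPM in the subset and 23.7 ± 5.49 CPM in the others (-2.78 ± 0.15), Eya4 3.47 ± 1.59 and 24 ± 6.92 CPM (-2.73 ± 0.14), Six3 2.03 ± 0.681 and 7.49 ± 0.738 CPM (-1.85 ± 0.16), and Eya1 5.63 ± 1.25 and 8.93 ± 0.936 CPM (-0.63 ± 0.11). Tshz2 averaged 37 ± 7.54 and 64.4 ± 6.1 CPM (-0.77 ± 0.056), Tshz3 7.81 ± 1.02 and 12 ± 0.837 CPM (-0.59 ± 0.084), and Maf 3.01 ± 1.15 and 5.49 ± 1.11 CPM (-0.86 ± 0.15). With thinned nuclei Eya1 (-0.70) and Tshz3 (-0.21) did not pass, nor did Maf with a stricter gate (-0.45). None of the 4 Zic genes passed here. The median log2 difference was -0.26 over the members and -0.00354 over all genes.

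Among the 50 other forebrain genes, 5 were higher in Col25a1/Tll1-gated neurons, 10 lower, 10 did not pass and 25 were not tested. Tcf4 averaged 239 ± 12.5 CPM in the subset and 455 ± 38 CPM in the others (-0.89 ± 0.036), Sox5 278 ± 31.3 and 495 ± 21.4 CPM (-0.80 ± 0.038), and Zfhx3 1064 ± 34.3 and 815 ± 29.5 CPM (0.42 ± 0.021).

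Among the 707 Calcr/Esr1/Prlr-gated neurons, which carry receptors for calcitonin, oestrogen or prolactin, 7 members were higher and 14 lower, 17 did not pass and 7 were not tested, against a background of 15.2% (7.41% higher, 7.8% lower). Otx2, a homeobox gene of head and choroid plexus development, had 6.49 to 14.6 CPM (median 10.8) in Calcr/Esr1/Prlr-gated neurons, against 2.38 to 3.64 CPM (median 2.82) in the others (1.85 ± 0.19, adjusted p = 1.3e-07). Six3, a repressor of posterior fate at the front of the brain, had 8.96 to 13.6 CPM (median 11.3) in the subset, against 4.29 to 5.73 CPM (median 5.14) in the others (1.14 ± 0.17, adjusted p = 1.6e-05). Every library of the subset lay above every library of the other neurons for both genes.

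Meis2 had 478 to 622 CPM (median 573) in the subset, against 941 to 1036 CPM (median 1003) in the others (-0.85 ± 0.043, adjusted p = 9.2e-13). Foxp2 averaged 31.7 ± 28.3 CPM in the subset and 209.6 ± 31.1 CPM in the others (-2.83 ± 0.20), Pax6 2.84 ± 0.658 and 17.8 ± 4.06 CPM (-2.65 ± 0.18), and Rarb 16.5 ± 5.54 and 36.8 ± 6.7 CPM (-1.14 ± 0.12). Bcl11a averaged 154 ± 11.5 and 233 ± 11.3 CPM (-0.61 ± 0.05), Bcl11b 49.9 ± 4.81 and 75.3 ± 3.17 CPM (-0.60 ± 0.069), and Lhx2 0.612 ± 0.21 and 4.09 ± 0.862 CPM (-2.73 ± 0.37). All 6 of these genes were lower in the subset without overlap.

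The differences of Eya4 (-2.07 ± 0.21), Ebf1 (-1.75 ± 0.28) and Tshz2 (-0.78 ± 0.13) did not pass with a stricter gate, at -1.68, -1.11 and -0.46, and Tshz2 did not pass with a robust spread in edgeR (adjusted p = 0.056). With thinned nuclei Eya4 was -1.14 and Pax6 -3.34. The stricter gate moved Meis2 to -1.58, Pax6 to -4.59 and Otx2 to 2.99. The striatal medium spiny panel summed to 765 to 1154 CPM in the subset and 594 to 638 CPM in the others, with 3 of 6 markers higher, and its part in the result was not tested. Members had a median log2 difference of -0.18, and all genes one of 0.00257. In the list of 50 other forebrain genes, 7 were higher in the subset, 6 lower, 11 did not pass and 26 were not tested. Zfhx3 averaged 492.9 ± 53.1 CPM in the subset and 943 ± 35.8 CPM in the others (-0.96 ± 0.049), and Nfia 532 ± 68.2 and 255 ± 20.5 CPM (1.04 ± 0.068).

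The 640 Col6a3/Tacr1-gated neurons had 9 members higher and 9 lower than the other lateral septum-like neurons, with 21 not passing and 6 not tested, against a background of 17.1% (8.86% higher, 8.25% lower). All 4 Zic genes were among the 9 higher ones. Zic4 had 102 to 133 CPM (median 124) in Col6a3/Tacr1-gated neurons, against 72.3 to 81.9 CPM (median 76) in the others (0.72 ± 0.059, adjusted p = 5e-10). Zic1 had 106 to 134 CPM (median 114) in the subset, against 74.7 to 87.5 CPM (median 78.8) in the others (0.59 ± 0.057, adjusted p = 1.1e-08). The subset lay above the others in each library for both genes. Zic2 had the smallest difference of the family (0.43 ± 0.12). Dlx1 was at 28.2 to 33.8 CPM (median 30.2) in the subset and 13.9 to 19.7 CPM (median 17.8) in the others (0.86 ± 0.097, adjusted p = 1.3e-07).

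Foxp2 averaged 43.9 ± 20.5 CPM in the subset and 207 ± 31.4 CPM in the others (-2.26 ± 0.12), Foxp1 268 ± 26 and 376 ± 14.4 CPM (-0.43 ± 0.049), Tshz2 18.6 ± 11.6 and 57.8 ± 6.37 CPM (-1.60 ± 0.14), and Eya4 3.36 ± 2.53 and 18 ± 5.38 CPM (-2.25 ± 0.23). Meis2 averaged 761 ± 108 and 977 ± 36.4 CPM with overlapping ranges (-0.31 ± 0.057). Pax6 (-1.46 ± 0.19) and Satb1 (0.66 ± 0.095) no longer passed with thinned nuclei, at -0.86 and 0.60, nor did Prdm16 (0.29 ± 0.042) and Foxp4 (0.87 ± 0.16) with a stricter gate, at 0.16 and 0.50. With that gate Eya4 was -3.42, Pax6 -2.34 and Meis2 -0.93. Markers of the Ano2/Ntf3 subset also moved, summing to 400.2 to 544 CPM in the subset and 245 to 283 CPM in the others, and their part in the result was not tested.

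Of the 50 other forebrain genes, 9 were higher in Col6a3/Tacr1-gated neurons, 5 lower, 10 did not pass and 26 were not tested. Over the members tested the median log2 difference was -0.07, and over all genes -0.0124. Nfib averaged 623 ± 66.8 CPM in the subset and 342 ± 20.4 CPM in the others (0.92 ± 0.049), Zeb2 432 ± 67.4 and 214 ± 18.2 CPM (1.07 ± 0.065), and Sox5 633 ± 76.9 and 400.2 ± 19.7 CPM (0.71 ± 0.05).

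Neuroblast-like nuclei, immature neurons marked by Sox11, Sox4, Igfbpl1 and Dcx, were set against GABAergic-like neurons. Of the members, 23 were higher in neuroblast-like nuclei, Prdm16 and Rarb were higher in GABAergic-like neurons, 17 did not pass and 3 were not tested. Of all genes 30.8% passed, 11.2% towards neuroblast-like nuclei and 19.7% towards GABAergic-like neurons. That split depends on scaling, with 1859 genes higher in neuroblast-like nuclei and 3274 higher in GABAergic-like neurons here, 2241 and 2682 with RLE scaling, and 2359 and 2051 with DESeq2, while the members split 23 to 2 with RLE scaling and 21 to 2 with DESeq2. The median log2 difference was 1.06 over the members and -0.239 over all genes, and with DESeq2 it was 0.489 over all genes. In this comparison edgeR estimated an infinite prior for the spread, so all genes share 1 spread and adjusted p-values come out smaller than 6 libraries could support gene by gene. They are therefore not printed, and DESeq2 and a fit that lets single genes keep a larger spread are given instead where they differ. All 4 Dlx genes, Sp8, Sp9, Meis1, Meis2 and Pbx3 were among the 23.

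Dlx1 had 112 to 197 CPM (median 127) in neuroblast-like nuclei, against 12.5 to 16.5 CPM (median 15.9) in GABAergic-like neurons (2.91 ± 0.16). Pbx3 had 1365 to 3922 CPM (median 2345) in neuroblast-like nuclei, against 311 to 359 CPM (median 340.1) in GABAergic-like neurons (2.42 ± 0.13). The neuroblast-like libraries were always the higher ones, and they varied far more among themselves. Meis2 averaged 3148 ± 837 CPM in neuroblast-like nuclei and 933 ± 37.8 CPM in GABAergic-like neurons (1.43 ± 0.12), and Meis1 185 ± 62.2 and 24.1 ± 2.57 CPM (2.63 ± 0.14).

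Sp8 averaged 30.1 ± 18.2 CPM in neuroblast-like nuclei and 3.04 ± 0.389 CPM in GABAergic-like neurons (3.01 ± 0.34), the widest difference among these members, and Sp9 80.9 ± 32.2 and 14.9 ± 0.908 CPM (2.14 ± 0.19). Tshz1 averaged 199.5 ± 81 and 41 ± 5.01 CPM (1.96 ± 0.14), Bcl11a 864 ± 201 and 223 ± 5.96 CPM (1.63 ± 0.12), and Sox6 444 ± 123 and 119.9 ± 22.4 CPM (1.59 ± 0.12). Dlx6 had the smallest difference of the Dlx family (1.39 ± 0.32). In the opposite direction, Prdm16 averaged 139 ± 66.6 CPM in neuroblast-like nuclei and 278 ± 15.5 CPM in GABAergic-like neurons (-1.38 ± 0.14), and Rarb 55.9 ± 51 and 137 ± 29 CPM with overlapping ranges (-1.64 ± 0.17). Those 2 values moved to -2.24 and -3.14 with a stricter gate.

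The call of Ebf2 rests on few libraries. It had 0 to 157 CPM (median 34.5) in neuroblast-like nuclei, against 3.88 to 10 CPM (median 6.28) in GABAergic-like neurons, and was higher in 4 of 6 libraries (2.52 ± 0.28). Without library 4 the difference was 1.76, with DESeq2 1.53 (adjusted p = 0.37), with a spread kept per gene in edgeR it did not pass (adjusted p = 0.12), and with a stricter gate it turned to -1.63. The class holds 36 to 64 nuclei per library with median UMI counts of 4036 to 5072, against 11061 to 14469 in GABAergic-like neurons. Its neuron panel summed to 8200.1 to 12874 CPM against 19310.5 to 20894 CPM, its astrocyte panel to 361 to 568.3 CPM against 177 to 265 CPM with 4 of 6 markers higher, and its dividing-cell panel (Top2a, Mki67) to 128 to 465 CPM against 2.73 to 4.16 CPM. Their part in the result was not tested.

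Among the 50 other forebrain genes, 17 were higher in neuroblast-like nuclei, 5 in GABAergic-like neurons, 10 did not pass and 18 were not tested. Etv1 averaged 256 ± 119.6 CPM in neuroblast-like nuclei and 22.2 ± 2.54 CPM in GABAergic-like neurons (3.17 ± 0.14), and Zeb2 1464 ± 323 and 192 ± 15.3 CPM (2.62 ± 0.12).

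Neurons as a whole were compared with macroglia, the astrocyte-like and oligodendrocyte-lineage nuclei pooled. All 45 members were tested, 25 of them higher in neurons, 18 higher in macroglia and 2 (Zic5, Eya2) not passing. With 84.0% of all genes passing (42.2% towards neurons, 41.8% towards macroglia), such counts say little about the members themselves. Among the members Uncx had the largest log2 difference towards neurons (3.47 ± 0.27), and the zinc finger genes Bcl11a and Bcl11b had the smallest adjusted p of the members on that side. Bcl11a had 196 to 218 CPM (median 209.8) in neurons, against 29.5 to 39 CPM (median 35.1) in macroglia (2.68 ± 0.038, adjusted p = 9.6e-16). Bcl11b averaged 78.5 ± 5.54 CPM in neurons and 12 ± 2.08 CPM in macroglia (2.80 ± 0.048), Foxp2 297 ± 35.2 and 117 ± 14.4 CPM (1.42 ± 0.03), Meis2 816 ± 46.2 and 418 ± 43.1 CPM (1.05 ± 0.031), and Pbx3 305 ± 19.5 and 142 ± 18.7 CPM (1.19 ± 0.035). Casz1 averaged 12.3 ± 1.52 CPM in neurons and 2.69 ± 0.416 CPM in macroglia (2.28 ± 0.074), and Ebf3 34 ± 12.2 and 3.68 ± 1.08 CPM (3.27 ± 0.11, and 4.16 with thinned nuclei).

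Sox6 had 91.2 to 161 CPM (median 115) in neurons, against 1112 to 1219 CPM (median 1158) in macroglia (-3.22 ± 0.068, adjusted p = 1.9e-14). Eya1 averaged 9.78 ± 0.945 CPM in neurons and 90.4 ± 5.2 CPM in macroglia (-3.13 ± 0.059), and Meis1 24.4 ± 1.64 and 134 ± 10.6 CPM (-2.38 ± 0.05). Otx2 averaged 5.07 ± 0.312 and 22.3 ± 1.06 CPM (-2.06 ± 0.052), and Lhx2, which acts in cortical patterning and in glial development, 4.05 ± 0.539 and 21.7 ± 1.38 CPM (-2.34 ± 0.061). None of these ranges overlapped. The neuron panel summed to 19074 to 20789.9 CPM in neurons and 2035 to 2845 CPM in macroglia, and the astrocyte panel to 180.5 to 275 CPM and 3236 to 3511 CPM. Neuron markers were thus counted in glial nuclei too, and their part in the low glial levels was not tested.

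Members had a median log2 difference of 0.20, and all genes one of 0.00767. In the list of 50 other forebrain genes, 11 were higher in neurons, 25 higher in macroglia, 4 did not pass and 10 were not tested. Nfia, a factor of gliogenesis, averaged 298 ± 15.1 CPM in neurons and 1825 ± 44 CPM in macroglia (-2.54 ± 0.03), Id4 10.3 ± 0.776 and 91 ± 7.22 CPM (-3.06 ± 0.04), and Zfhx3 793 ± 35.7 and 168 ± 6.68 CPM (2.32 ± 0.038).

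Within macroglia, astrocyte-like nuclei were set against nuclei of the oligodendrocyte lineage. Here 23 members were higher in astrocyte-like nuclei, 9 higher in the oligodendrocyte lineage, 7 did not pass and 6 were not tested, against a background of 70.7% (35.7% towards astrocyte-like, 35.0% towards oligodendrocyte-lineage nuclei). The 23 include the 4 Zic genes, both Otx genes, Pax6, Six3 and Lhx2. Zic4 had 206 to 272 CPM (median 247) in astrocyte-like nuclei, against 13.4 to 22.3 CPM (median 19.6) in oligodendrocyte-lineage nuclei (3.61 ± 0.064, adjusted p = 5.3e-21). Prdm16 had 418 to 496 CPM (median 462) in astrocyte-like nuclei, against 26.1 to 34.8 CPM (median 31.2) in oligodendrocyte-lineage nuclei (3.87 ± 0.059, adjusted p = 6.3e-22). Both were higher in every library by more than the full spread of either class.

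Zic1 averaged 152 ± 24.7 CPM in astrocyte-like and 21.9 ± 2.46 CPM in oligodendrocyte-lineage nuclei (2.75 ± 0.059), and Zic5 18.6 ± 2.84 and 3.58 ± 1.08 CPM (2.32 ± 0.14). Pax6, which radial glia carry in the embryo, averaged 66.8 ± 7.34 and 7.37 ± 1.3 CPM (3.12 ± 0.067), Lhx2 42.6 ± 2.81 and 3.45 ± 0.973 CPM (3.58 ± 0.10), and Six3 22 ± 2.66 and 5.07 ± 1.46 CPM (2.07 ± 0.12). Otx2 averaged 45 ± 3.41 and 2.42 ± 0.624 CPM (4.14 ± 0.10). Meis2 (1.34 ± 0.041), Eya4 (1.47 ± 0.065) and Rarb (1.06 ± 0.05) were likewise higher in astrocyte-like nuclei. Ebf1 had 6.69 to 13.7 CPM (median 10.3) in astrocyte-like nuclei, against 98.8 to 131 CPM (median 109) in oligodendrocyte-lineage nuclei, the largest difference in that direction among the members (-3.48 ± 0.09, adjusted p = 2.4e-18).

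Over the members tested the median log2 difference was 0.42, and over all genes -0.00522. Of the 50 other forebrain genes, 16 were higher in astrocyte-like nuclei, 11 in the oligodendrocyte lineage, 5 did not pass and 18 were not tested. Zeb2 averaged 484 ± 19.5 CPM in astrocyte-like and 1979.9 ± 117 CPM in oligodendrocyte-lineage nuclei (-2.08 ± 0.038), Tcf7l2 502 ± 30.4 and 125 ± 6.81 CPM (1.95 ± 0.036), and Tle4 500.2 ± 16.8 and 137 ± 7.88 CPM (1.81 ± 0.036).

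Ependymal-like nuclei, the ciliated lining of the ventricle beside the septum, were compared last, with astrocyte-like nuclei. Of the members, 11 were higher in ependymal-like nuclei and 16 in astrocyte-like nuclei, 10 did not pass and 8 were not tested, against a background of 70.2% (35.8% towards ependymal-like, 34.4% towards astrocyte-like nuclei). Rarb had 290.5 to 345 CPM (median 322) in ependymal-like nuclei, against 82.6 to 106 CPM (median 92.5) in astrocyte-like nuclei (1.79 ± 0.049, adjusted p = 8.5e-32). Prdm16 had 134 to 169 CPM (median 150.0) in ependymal-like nuclei, against 418 to 496 CPM (median 462) in astrocyte-like nuclei (-1.60 ± 0.049, adjusted p = 4.1e-30). Neither gene's ranges overlapped.

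Foxp1 averaged 608 ± 36.4 CPM in ependymal-like and 367 ± 20.9 CPM in astrocyte-like nuclei (0.74 ± 0.044), Foxp4 37.5 ± 5.96 and 19.1 ± 1.54 CPM (1.0 ± 0.10), Casz1 15.5 ± 4.03 and 2.78 ± 0.728 CPM (2.46 ± 0.19), and Tshz3 44.4 ± 6.36 and 26 ± 4.29 CPM (0.78 ± 0.094). Lower in ependymal-like nuclei were Eya1, at 22.3 ± 5.77 against 85.4 ± 11.7 CPM (-1.92 ± 0.089), Lhx2, at 5.49 ± 1.74 against 42.6 ± 2.81 CPM (-2.93 ± 0.15), and Pax6, at 17.2 ± 4.05 against 66.8 ± 7.34 CPM (-2.0 ± 0.11). Tshz2 (-0.89 ± 0.064), Meis1 (-0.97 ± 0.07) and Zic1 (-0.64 ± 0.059) were lower too. Foxp2, the remaining forkhead member, did not pass. The endothelial panel summed to 88.3 to 113 CPM in ependymal-like and 11.5 to 18.4 CPM in astrocyte-like nuclei, and its part in the result was not tested.

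The median log2 difference was -0.18 over the members and -0.0178 over all genes. Among the 50 other forebrain genes, 5 were higher in ependymal-like nuclei, 20 in astrocyte-like nuclei, 5 did not pass and 20 were not tested. Tcf4 averaged 624.7 ± 22.7 CPM in ependymal-like and 1441 ± 37.9 CPM in astrocyte-like nuclei (-1.19 ± 0.04), and Tcf7l2 192 ± 15.9 and 502 ± 30.4 CPM (-1.38 ± 0.049).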

How the data were processed

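Single-nucleus RNA was measured in 6 wild type septal area libraries made with Chromium Single Cell 3' v3 chemistry. The authors deposited raw UMI counts per gene and barcode for each library. They were made with Cell Ranger, which the submitters' processing notes give as version 3.1.0 and the file headers as 5.0.0, with STAR as the aligner per the submitters' notes. No source used here gives the genome build or the use of intronic reads and of strand.

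Barcodes with at least 500 detected genes were kept. Panels of markers, summed per 10000 UMIs, gated each nucleus, and nuclei positive for several major panels were left out. No doublet caller was run, so doublets of 1 class remain. The markers were set before the thresholds, which were set on the panel distributions with no member examined. The members and the gene lists were chosen with earlier results of these data known. Those results had already tied some members to gated classes, such as Ebf genes to Corin and Casz1 to medial septum-like neurons.

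UMIs were summed per library and class and tested with edgeR 4.0.16 in R 4.3.3 (TMM scaling, filterByExpr, quasi-likelihood F test, library as a block, Benjamini-Hochberg over all genes tested). A class needed 10 nuclei in at least 4 libraries. Both classes of a comparison come from the same libraries, and this is the source of the pairing. The SE is the size of the log2 difference divided by the square root of F. In 74% to 88% of cases a simulated 2-fold change was recovered in the GABAergic-like against glutamatergic-like and the lateral against medial septum-like comparisons, and in 100% a 4-fold change. The simulation changed only genes counted above a floor in the smallest library and gave all genes the same spread. Its shares therefore do not apply to members with lower counts or a wider spread. Class sizes and depth set the precision, and intervals are not given for single counts. Alternatives were DESeq2 1.42.0, RLE scaling, no low-count filter, no block, each library left out, a stricter gate, at least 1000 genes, thinning to 2000 UMIs and leaving out the 5% of nuclei with most UMIs. Chosen after seeing the data were the split of cholinergic-like nuclei and a robust spread in edgeR.

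Values are given for the 12 members with the smallest adjusted p that passed in a comparison and for the extremes of gene families. For the 50 other forebrain genes they are given for the 3 with the smallest adjusted p, except that some of these are not reported here, and other members are given by counts. Of the 45 members, 27 overlap another annotated gene in GENCODE M21 (26 on the opposite strand, and Foxp1 with 1 on the same strand), and shared reads there cannot be told apart. Nothing states that libraries came from separate animals. Figures were drawn with matplotlib 3.10.9.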

Additional observations from a re-analysis of the deposited data

Results flagged for a closer look

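Groups were the 6 libraries of a class, or 4 in the interneuron-like and cortical glutamatergic-like classes. The highest or lowest value was compared with the range of the group, for members of at least 50 CPM and 200 UMIs in a class. Of 157 such groups 13 held a library that stood apart, and chance alone marks about 1 in 20.

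Library 4 stood above the other 5 most often. Bcl11b reached 79.1 CPM there in lateral septum-like neurons, with the next library at 72.7, and 180 CPM in medial septum-like GABAergic neurons, with the next at 141. Pbx3 in astrocyte-like nuclei reached 140 CPM against 101 in the next library, Tshz1 in oligodendrocyte-like nuclei 66.4 against 59.5, and Meis1 in ependymal-like nuclei 60.2 against 54.3. Foxp2 in microglia-like nuclei was 353 CPM in that library and 123 in the next.

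Library 6 was highest for Bcl11b in medium spiny-like neurons, at 292 CPM against 236 in the next library, for Zic1 in cholinergic-like neurons, at 105 against 71.8, and for Pbx3 in endothelial-like nuclei, at 672 against 394. Library 2 was highest for Foxp2 in subcortical glutamatergic-like neurons, at 252 CPM against 115, and lowest for Tshz2 in oligodendrocyte precursor-like nuclei, at 312 against 364. Library 1 was lowest for Pbx3 in medium spiny-like neurons, at 452 CPM against 558, and highest for Pax6 in astrocyte-like nuclei, at 80.7 against 67.2. What sets these libraries apart was not tested.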

How the results depend on the processing

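Over all alternatives 4922 member values that passed in the main fit passed again with the same direction, 227 no longer passed and 13 changed direction. Values that an alternative could not test are left out, as are members that did not pass in the main fit. With at least 1000 genes all 348 values were followed. That setting removed no nucleus from the lateral septum-like, medial septum-like, medium spiny-like and cholinergic-like classes or their subsets. Agreement in comparisons among those classes was therefore fixed in advance, though it counts in the 4922. Thinning gave only 235 that passed, 43 that did not and 3 that changed direction, and the stricter gate 274, 43 and 8. None changed direction with DESeq2, with RLE scaling, without the low-count filter, with a robust spread or with any library left out. With a stricter gate the log2 difference changed sign for Ebf2 (-1.63), Ebf3 (-1.35) and Eya4 (-0.38) in neuroblast-like nuclei, for Ebf2 in ependymal-like nuclei (0.07), for Tshz2 (0.24) and Prdm16 (-0.00) in the Ano2/Ntf3 subset and for Meis1 (0.14) and Tshz3 (0.01) in the Calcr/Esr1/Prlr subset. With thinning to 2000 UMIs it changed for Pbx3 between lateral and medial septum-like neurons (-0.04), Eya1 between astrocyte-like and oligodendrocyte-lineage nuclei (0.18) and Meis1 in the Col6a3/Tacr1 subset (0.23). Ebf2 in ependymal-like nuclei also changed without the 5% of nuclei with most UMIs (0.18), and Prdm16 with cholinergic-like nuclei low in lateral septum markers (-0.12). The cause was not tested.

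Counts of genes that passed moved most with thinning, which leaves fewer UMIs, to 2588 for GABAergic-like against glutamatergic-like neurons, 1544 for lateral against medial septum-like, 2086 for medium spiny-like, 481 for cholinergic-like (members 9), 145 for Drd1-type, 397 for Corin-gated (members 5), 1653 for Ano2/Ntf3 (members 14), 1285 for Col25a1/Tll1 (members 9), 736 for Calcr/Esr1/Prlr (members 10) and 845 for Col6a3/Tacr1 (members 11). A stricter gate, with fewer nuclei, gave 2814 for lateral against medial septum-like, 3218 for medium spiny-like, 1087 for cholinergic-like (members 12), 3313 for Ano2/Ntf3, 848 for Calcr/Esr1/Prlr (members 10) and 1222 for Col6a3/Tacr1. The Drd1-type comparison could not be fitted with that gate. DESeq2 gave 1361 for cholinergic-like and 2022 for Col25a1/Tll1, the cholinergic-like nuclei low in lateral septum markers 1067, and no low-count filter 489 for Drd1-type.

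Without the replicate block, that is without pairing the classes of a library, 7 member values no longer passed and none changed direction. The members called were then 36 for GABAergic-like against glutamatergic-like neurons, where 5840 of 17197 genes passed, 27 for lateral against medial septum-like neurons, where 5297 of 15479 did, and 20 for cholinergic-like neurons, where 2108 of 8271 did.

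In the Calcr/Esr1/Prlr subset a stricter gate gave 304 higher and 544 lower genes, and in the Corin-gated neurons no filter gave 605 and 1222. Between lateral and medial septum-like neurons DESeq2 gave 2019 higher and 2384 lower genes and shifted the median by -0.218. Small classes limit the rest, with 36 to 64 neuroblast-like nuclei per library and 24 members too low to test in cholinergic-like neurons.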
